A study of Mus musculus with 4 samples.

Results

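Gene expression in *Twist1*+/- frontal bone was set against that in wild-type frontal bone, with 1 RNA-seq library for each genotype. The measure was the log2 ratio of FPKM (read fragments scaled to transcript length and to the size of the library), *Twist1*+/- over wild type, so that a positive value means a higher level in the mutant. Of 23946 gene symbols, 10075 were compared. A gene entered the comparison if neither frontal library listed it at 0 and its higher value was no less than 5 FPKM, after 1193 symbols of short RNA genes (microRNAs and small nucleolar or Cajal body RNAs) had been left out. A gene under 5 FPKM in 1 of the libraries could thus enter only through the other, which fixed the direction of its ratio. Among the other 22753 symbols, 9713 were above 0 but under 5 FPKM, 2960 were listed at 0 in both frontal libraries, and 5 reached 5 FPKM in the mutant while listed at 0 in wild type. Both groups were C57BL/6J mice at postnatal day 21. Wild-type mice and mice with 1 mutant copy of *Twist1* in all cells were used, with 12 mice per strain behind the RNA, and the labels do not say how they were divided among samples. The study describes its parietal bone samples as holding the outer membrane (pericranium), the bone plate and the dura mater beneath, and no separate account of the frontal samples was found in its methods. The study's methods speak of replicates, and whether the values of a sample summarise several libraries is not given in the sources used here. With a single set of values on each side no difference has a replicate check, so no p-value is given and every value below describes these samples, called libraries here.

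*Twist1* encodes a basic helix-loop-helix transcription factor that pairs with E proteins and binds E-boxes, short DNA sites of the form CANNTG. It acts in cranial neural crest and mesoderm and holds osteoblast precursors in an undifferentiated state, in part by restraining Runx2, and loss of a single copy causes early closure of the coronal suture in mice and in people with Saethre-Chotzen syndrome. The frontal bone is a neural crest derivative that encloses red marrow at this age, lies above the nasal cavity and the front of the brain, and borders jaw muscle at its sides.

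*Twist1* itself (chr12:34642536-34644682 in mm9) was at 59.0 FPKM in wild-type and 30.4 FPKM in mutant frontal bone (log2 ratio -0.96). The frontal values therefore differed by close to the fold that loss of 1 allele would give, while those of parietal bone, 52.5 FPKM in wild type and 50.7 FPKM in the library labelled *Twist1*+/-, hardly differed. Osteoblast genes were abundant in both frontal libraries, with osteocalcin (*Bglap*) at 6811 and 5371 FPKM and *Sp7* at 86.7 and 83.4 FPKM, but the collagen genes *Col1a1* and *Col1a2* are listed at 0 in both, so a 0 cannot be read as absence. *Gapdh* was at 158 and 170 FPKM (log2 ratio 0.10), with 85.4% of its 75-base windows also present in another annotated gene. From 776 genes of very low level, 1 read was estimated to be worth 1.30 times as many FPKM in the mutant as in the wild-type library. Close to this ratio lay 10.6% of these genes, against a median of 1.8% at other ratios. That would make the wild-type frontal library the deeper, yet 18677 genes were above 0 in it and 19452 in the mutant, so relative depth stays uncertain. The X inactivation RNA *Xist* was at 51.7 FPKM in wild type and 26.5 FPKM in the mutant, and the Y-linked gene *Ddx3y* at 3.11 and 9.84 FPKM. The labels give no sex, and the part of sex in the results was not tested.

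Most genes differed little. The median log2 ratio over the 10075 genes was -0.05, the middle 90% lay between -0.61 and 0.48, and 8867 genes (88.0%) were within 0.5 of 0. Past 3-fold were 165 genes, or 1.64%, of which 144 (1.43%) were higher and 21 (0.208%) lower in *Twist1*+/- bone. The study's text also used this fold, but together with a p-value limit that was not applied here. A figure legend of the study states its limits differently, so its counts cannot be set beside these. Past 2-fold were 331 genes (3.29%), 212 higher (2.1%) and 119 lower (1.18%). Small differences leaned the other way, with 5877 genes (58.3%) lower to any degree and 4198 (41.7%) higher. Of the 144 genes higher past 3-fold, 16 had a wild-type value under 1 FPKM, where few reads stand behind a ratio, and their median levels were 2.67 FPKM in wild type and 14.4 FPKM in the mutant.

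**Figure D1:**
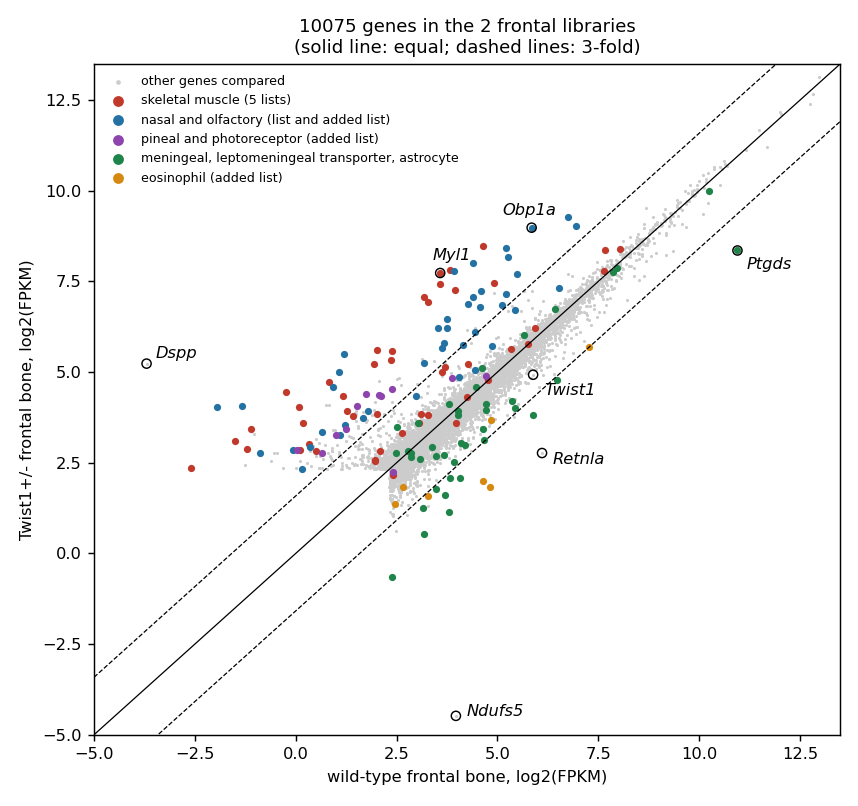
Each point is 1 of the 10075 genes, with its log2(FPKM) in wild-type frontal bone on the horizontal axis and in *Twist1*+/- frontal bone on the vertical axis. Many skeletal muscle, nasal and pineal genes lie above the upper 3-fold line, several meningeal, astrocyte and eosinophil genes lie below the lower line, and *Twist1* lies inside that line at 59.0 and 30.4 FPKM.

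Genes of skeletal muscle were higher in *Twist1*+/- frontal bone. In 5 lists, such genes made up 123 symbols, 47 of which could be compared. Their median log2 ratio was 2.55. Of the 47, 27 were higher past 3-fold, 29 past 2-fold and none was lower past 2-fold. Members under 5 FPKM in wild type, such as *Myh1*, *Casq1* and *Atp2a1*, entered only through the mutant and could not have been lower. Others past 3-fold, such as *Mylpf*, *Ckm* and *Mb*, were above 5 FPKM in wild type as well. The summed level of the 123 genes was 1195 FPKM in wild-type and 3338 FPKM in *Twist1*+/- frontal bone. In bulk RNA, fewer cells of a type and less RNA per cell cannot be told apart, and this holds for every group described here.

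The contractile filaments led. Among 11 genes of the thick and thin filaments the median log2 ratio was 3.65 and 8 were higher past 3-fold. The fast myosin light chain gene *Mylpf* was at 25 and 353 FPKM and *Myl1*, another fast light chain, at 12.0 and 212 FPKM (log2 ratios 3.82 and 4.15). Skeletal actin (*Acta1*) was at 30.0 and 175 FPKM (2.55). The fast troponins, which make contraction depend on calcium, moved alike, with *Tnnc2* at 11.9 and 174 FPKM, *Tnni2* at 15.5 and 152 FPKM and *Tnnt3* at 9.71 and 122 FPKM. Myosin heavy chain genes that lie next to each other on chromosome 11 had still higher ratios from low wild-type values. *Myh1* (adult fast fibres) was at 0.847 and 21.7 FPKM, and *Myh8* (perinatal fibres) at 0.467 and 10.7 FPKM. They share 16.6% and 12.9% of their 75-base windows with *Myh2*, so the authors' counting may have split some reads. Tropomyosins used in many cell types differed less, *Tpm1* by 0.70 and *Tpm3* by 0.02 on the log2 scale.

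The promoters of the 2 light chain genes are shown because these genes were among the most abundant of the muscle genes past 3-fold, as the 250 bases before the start in RefSeq (GRCm38.p6, gene strand), with every CANNTG in capitals.
Myl1, chr1:66945057-66945306, minus strand: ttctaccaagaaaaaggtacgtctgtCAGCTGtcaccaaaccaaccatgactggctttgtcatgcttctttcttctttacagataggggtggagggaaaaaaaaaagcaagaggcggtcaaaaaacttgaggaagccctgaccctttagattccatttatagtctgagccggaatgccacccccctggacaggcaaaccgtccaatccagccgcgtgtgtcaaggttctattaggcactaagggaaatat
Mylpf, chr7:127211358-127211607, plus strand: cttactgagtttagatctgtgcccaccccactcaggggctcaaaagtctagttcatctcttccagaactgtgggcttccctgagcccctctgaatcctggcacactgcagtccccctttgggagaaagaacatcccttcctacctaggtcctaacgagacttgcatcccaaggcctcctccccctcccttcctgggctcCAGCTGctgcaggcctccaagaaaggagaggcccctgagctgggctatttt
Each holds 1 E-box, and in both it reads CAGCTG. Of the 19 muscle genes higher past 3-fold that have a promoter in the table, 16 (84.2%) held a CANNTG and 10 (52.6%) a CAGCTG. Over the first promoters of the 7722 compared genes with an entry, these shares were 55.6% and 10.9%, and over all 32851 promoters they were 66.2% and 13.0%. CANNTG and CAGCTG read the same on both strands and every CAGCTG is also a CANNTG. Such a match describes the sequence and does not show that a factor binds there.

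Other parts of the muscle fibre followed the filaments. Among 11 genes of the Z disc, M band and cytoskeleton the median was 2.71 and 9 were higher past 3-fold. Examples are myozenin (*Myoz1*, 1.78 and 26.3 FPKM), myotilin (*Myot*, 0.431 and 7.34 FPKM) and *Smpx* (1.12 and 12.0 FPKM). In calcium handling, the pump gene *Atp2a1* was at 3.87 and 37.7 FPKM and calsequestrin (*Casq1*) at 1.06 and 16.4 FPKM. Sarcolipin (*Sln*), a small inhibitor of the calcium pump, had the highest ratio of any gene in the muscle lists (4.96) at 0.165 and 5.12 FPKM. For energy supply, 16 genes had a median of 1.06 and split into muscle-specific and general members. Muscle creatine kinase (*Ckm*) was at 9.08 and 134 FPKM, myoglobin (*Mb*) at 14.1 and 224 FPKM, and the muscle forms of cytochrome c oxidase *Cox6a2*, *Cox7a1* and *Cox8b* had log2 ratios between 2.98 and 3.59. General glycolytic genes of that list differed little, *Aldoa* by 0.35 and *Pfkm* by 0.01.

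Myogenic factors and satellite cell genes did not share in this. Only 4 of 16 reached 5 FPKM, none was past 2-fold, and their median was 0.02. *Mef2c* was at 40.3 and 49.3 FPKM, and *Cdh15* at 15.8 and 12.1 FPKM. In parietal bone the summed muscle level went the other way, at 7413 FPKM in wild type and 4480 FPKM in the library labelled *Twist1*+/-. *Mylpf*, for example, was at 1295 and 357 FPKM there. Of the 27 muscle genes higher past 3-fold in frontal bone, 20 were lower and 7 higher in the labelled parietal library, among the latter *Mb* at 87.2 and 261 FPKM. Wild-type frontal bone thus had the lowest sum of the 4 libraries. Mutant frontal bone was close to the labelled mutant parietal library for *Mylpf* and *Myl1* (212 and 233 FPKM). It was lower for *Ckm* (134 and 206 FPKM) and in the sum (3338 and 4480 FPKM).

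**Figure D2:**
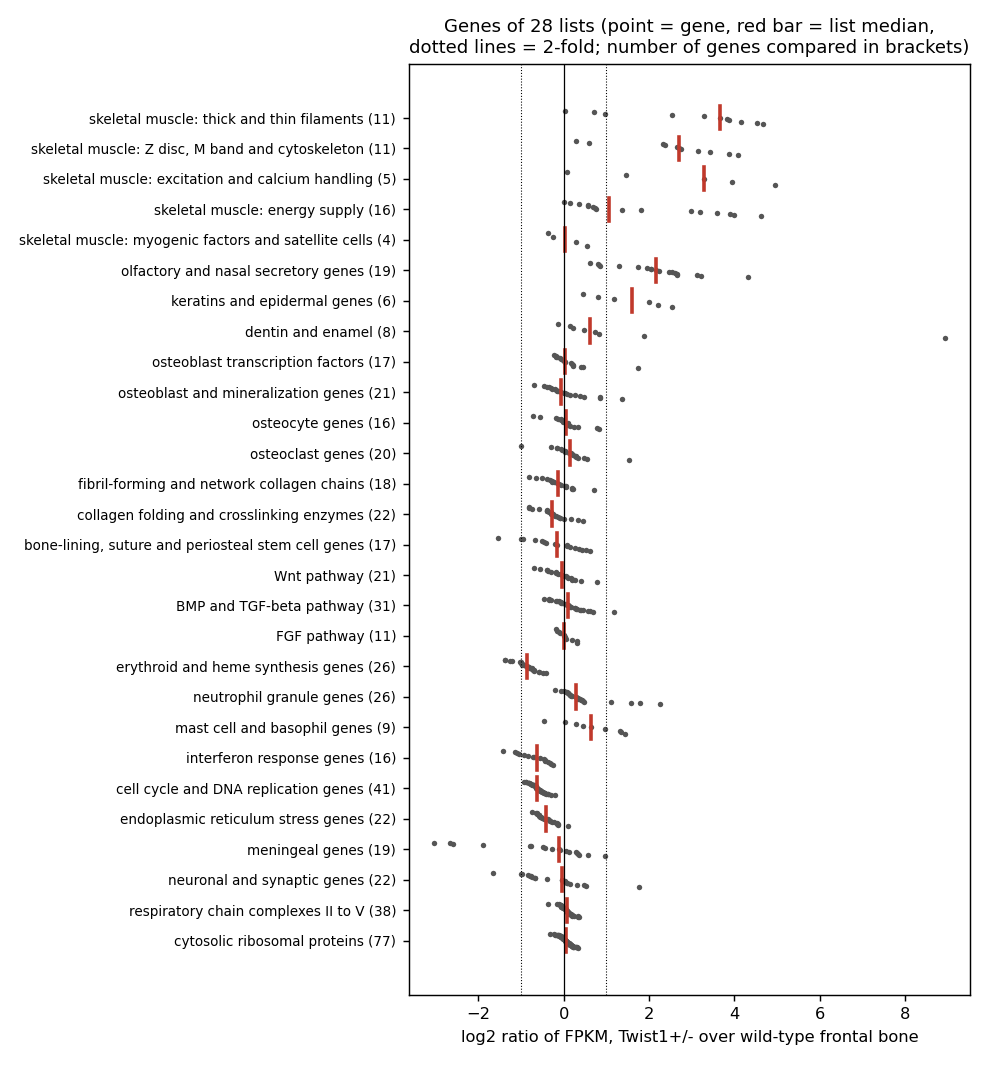
Log2 ratios of FPKM, *Twist1*+/- over wild-type frontal bone (horizontal axis), for the compared genes of selected lists, with 1 point per gene and a red bar at each list median. The filament, Z disc, calcium handling and nasal lists have medians from 2.16 to 3.65, bone and signalling lists sit near 0, and the erythroid, interferon and cell cycle lists lie wholly below 0.

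With the muscle lists left out, 10028 genes remained and 138 of them (1.38%) were past 3-fold, 117 higher (1.17%) and 21 lower (0.209%). Past 2-fold were 302 genes (3.01%), with 183 higher (1.82%) and 119 lower (1.19%), and 58.6% were lower to any degree. The excess of higher genes therefore did not rest on muscle alone. Genes of the nose, the pineal gland, epithelia and teeth made up much of what remained on the higher side. Of the 144 higher genes, 27 belonged to the muscle lists and 14 to a list of nasal and olfactory genes, and 35 more fell in lists drawn up after the values were seen (22 nasal, 9 pineal and photoreceptor, 4 muscle). No list held 57 of them.

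**Figure D3:**
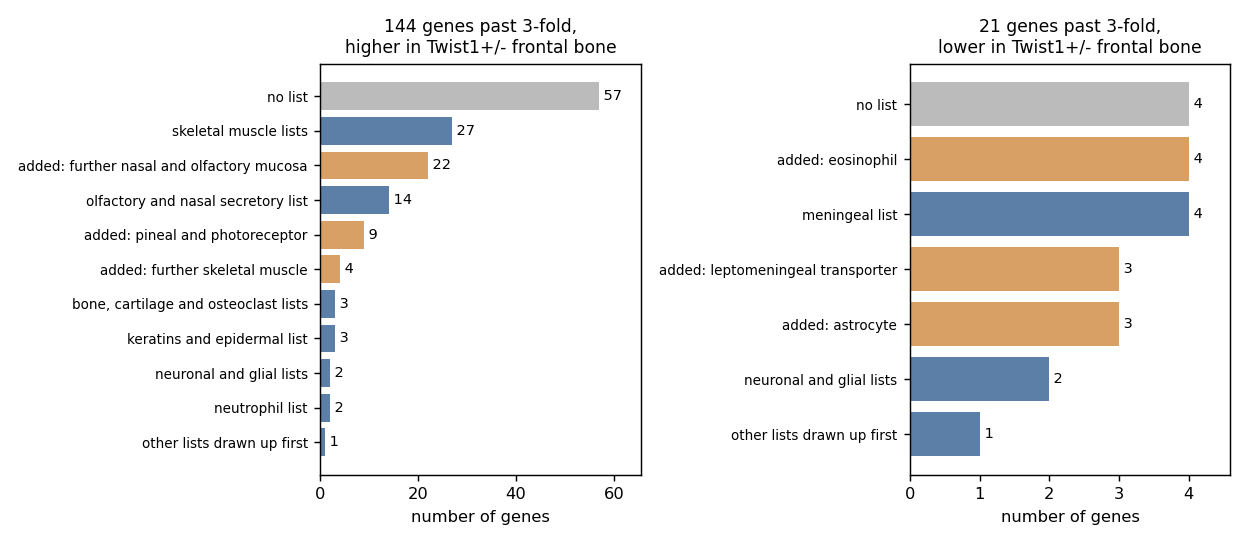
Bars count the genes past 3-fold by the list each was assigned to, with the 144 higher genes on the left and the 21 lower genes on the right. Blue bars are lists drawn up first, tan bars are lists drawn up after values were seen, and grey bars are genes in no list. Muscle (27) and nasal genes (14 and 22) lead on the left, and meningeal, eosinophil and astrocyte genes on the right.

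The nasal and olfactory list held 19 compared genes, all higher in the mutant, where 41.7% of all genes were. Members under 5 FPKM in wild type, such as *Cnga2*, entered only through the mutant and could not have been lower. Their median log2 ratio was 2.16 and 14 were past 3-fold. Members of this list fall into carriers of odorants, secreted defence proteins, enzymes and signalling proteins of olfactory neurons. Odorant-binding protein 1a (*Obp1a*) was at 57.6 FPKM in wild-type and 505 FPKM in *Twist1*+/- frontal bone (3.13), and at 0.852 and 542 FPKM in the parietal libraries. *Gm14743*, at 36.8 and 341 FPKM, shares 69.3% of its windows with *Obp1b*, so its own level is uncertain. The airway defence protein gene *Bpifa1* was at 108 and 625 FPKM (2.54). Among the enzymes, the olfactory cytochromes P450 *Cyp2g1* and *Cyp2a5* were at 21.2 and 133 FPKM and at 23.9 and 151 FPKM. Of the genes of olfactory neurons, olfactory marker protein (*Omp*) was at 34.5 and 116 FPKM (1.74) and the channel gene *Cnga2* at 3.44 and 15.3 FPKM (2.16). Among the carriers *Obp2a*, *Obp2b* and *Lcn3* differed less, with ratios of 0.80, 0.86 and 0.84. The wild-type frontal library was not without these transcripts, and its values lay between those of the mutant and those of wild-type parietal bone for *Obp1a*, *Bpifa1*, *Cyp2g1* and *Cyp2a5*.

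The promoter of *Obp1a* is shown as that of an abundant odorant carrier none of whose windows is shared (GRCm38.p6, 250 bases, gene strand).
Obp1a, chrX:78091375-78091624, minus strand: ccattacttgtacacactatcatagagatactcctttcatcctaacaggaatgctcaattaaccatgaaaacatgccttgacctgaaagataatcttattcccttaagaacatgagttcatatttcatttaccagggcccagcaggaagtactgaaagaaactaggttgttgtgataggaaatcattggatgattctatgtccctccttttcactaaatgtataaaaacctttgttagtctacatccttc
It holds no CANNTG. Among the 96 non-muscle genes higher past 3-fold with a promoter entry, 70 (72.9%) held a CANNTG and 18 (18.75%) a CAGCTG.

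Further nasal genes, other than *Bpifb4* of the first list, came to notice through their values, so their direction is not independent evidence. *Chil4*, a chitinase-like secreted protein, was at 0.257 and 16.4 FPKM (6.00) and *Bpifb6* at 0.395 and 16.6 FPKM (5.40), the highest ratios after *Dspp*. *Bpifb4* was at 2.29 and 45.6 FPKM, the pheromone carrier *Mup5* at 15.2 and 219 FPKM, and the olfactory glutathione peroxidase *Gpx6* at 2.10 and 32.3 FPKM. Of the 136 higher genes of any kind with a position in mm9, 27 lay within 100000 bp of another. The same share over all compared genes was not computed. These neighbours include muscle, keratin and stefin genes, so the count is not one of nasal genes. Most numerous were 7 genes of the Bpif family on chromosome 2, in a group of 3 (*Bpifb6*, *Bpifb3* and *Bpifb4*, chr2:153726124-153789837) and a group of 4 (*Bpifa1*, *Bpifb5*, *Bpifb9a* and *Bpifb9b*, chr2:153968616-154146382). *Bpifb9b* shares 61.6% of its windows with *Bpifb9a*. *Cyp2g1* and *Cyp2a5* are neighbours on chromosome 7.

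Genes of the pineal gland and of photoreceptors, which use a common set of light-transduction genes, were also higher, and this list too was drawn up after values were seen. Of 27 genes, 12 could be compared and 9 were past 3-fold, with a median of 2.21. Among those 9 only *Sag* was above 5 FPKM in wild type. The others entered only through the mutant, so their direction was fixed. Tryptophan hydroxylase 1 (*Tph1*), which starts the synthesis of serotonin and melatonin, was at 4.19 and 20.6 FPKM. The transcription factor *Crx* was at 4.30 and 20.2 FPKM, arrestin (*Sag*) at 5.22 and 23.3 FPKM, and the retinoid carrier *Rbp3* at 3.35 and 20.8 FPKM. All 4 were highest in mutant frontal bone, and their parietal values were at most 5.79 FPKM. *Rom1*, *Gngt2* and *Guca1a* of the same list were not past 2-fold.

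The single widest difference was in a tooth gene. *Dspp* (chr5:104599731-104609146 in mm9), which encodes dentin sialophosphoprotein of the tooth matrix, was at 0.0771 FPKM in wild-type and 37.6 FPKM in mutant frontal bone (log2 ratio 8.93). Parietal values were 0 and 3.14 FPKM, and none of its windows is shared with another gene. Amelogenin (*Amelx*), the main protein of forming enamel, was at 10.8 and 39.6 FPKM (1.87), and ameloblastin (*Ambn*) at 10.9 and 18.1 FPKM (0.73). The other 5 members of the dentin and enamel list, which bone also uses, differed less. Among them, *Dmp1* was at 99.4 and 91.1 FPKM, *Spp1* at 4107 and 4579 FPKM and *Mepe* at 70.5 and 124 FPKM. The list median was 0.61 over 8 genes.

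Epithelial genes were higher as well. All 6 compared genes of the keratin and epidermal list had higher values. Of these, *Krt8*, *Krt18*, *Epcam* and *Cdh1* were under 5 FPKM in wild type. They entered the comparison only through the mutant and could not have been lower, so the 6 are not set against all genes. Of the 6, 4 were past 2-fold, and the median was 1.60. The simple-epithelium keratins *Krt8* and *Krt18* were at 1.34 and 7.78 FPKM and at 3.91 and 18.1 FPKM, and the adhesion protein gene *Epcam* at 3.86 and 15.5 FPKM. E-cadherin (*Cdh1*), which is in both this list and the list of *Twist1* partners and epithelial-mesenchymal factors, was at 3.17 and 5.50 FPKM (0.79). Epidermal keratin *Krt5* stayed under the floor at 0.236 and 1.55 FPKM. Among unlisted genes, the secretory epithelium genes *Agr2* (2.80 and 12.6 FPKM), *Aqp5* (1.74 and 6.88 FPKM) and *Wfdc18* (105 and 321 FPKM) had the same sign.

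**Figure D4:**
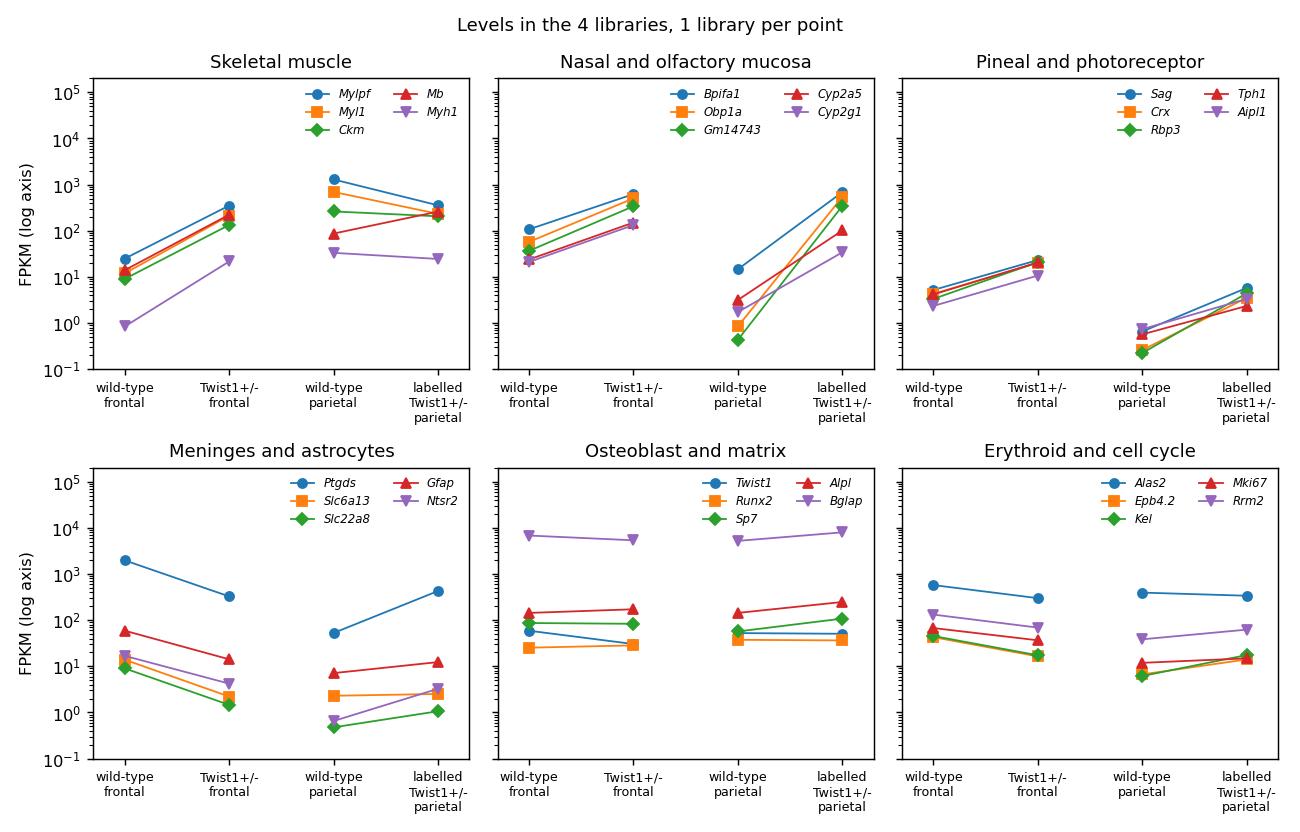
FPKM on a log axis for 5 genes of each of 6 functions in the 4 libraries, with 1 library per point and lines joining the 2 genotypes of a bone. All 5 muscle genes are higher in the mutant in frontal bone, while in parietal bone *Mb* alone is, nasal and pineal genes are higher in both bones, meningeal and astrocyte genes are lower in frontal bone, and osteoblast genes lie nearly flat in frontal bone apart from *Twist1*.

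Few genes of bone-forming tissue itself differed past 2-fold between the frontal libraries. Over 11 lists of matrix, matrix protease, osteoblast, osteocyte, stromal and osteoclast-regulating genes, 145 genes were compared. Their median log2 ratio was -0.09, and 116 (80.0%) lay within 0.5 of 0, a smaller share than the 88.0% of all genes. Past 2-fold were 2 higher and 2 lower, or 1.38% in either direction, near the 2.1% and 1.18% of all genes. *Runx2*, the factor that commits cells to bone, was at 25.3 and 28.4 FPKM (0.16), and alkaline phosphatase (*Alpl*) at 144 and 172 FPKM (0.26). *Bglap* was at 6811 and 5371 FPKM (-0.34) but shares 66.1% of its windows with *Bglap2*, and osteonectin (*Sparc*) was at 7180 and 6526 FPKM (-0.14). The mineralization inhibitor *Mgp* was at 407 and 735 FPKM (0.85). *Spock1* (4.11 and 10.5 FPKM) and *Sox11* (2.09 and 6.96 FPKM) were the 2 higher members, both at low levels. With a pseudocount of 1 FPKM the ratio of *Sox11* was 1.37, no longer past 3-fold.

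On the lower side of the bone lists stood single matrix genes of the periosteum and tendon, from lists that were split. Of 17 bone-lining, suture and periosteal genes 9 were lower and 8 higher (median -0.16), with 1 lower past 2-fold. Of 7 tendon and ligament genes 4 were lower and 3 higher (median -0.15), with 1 lower past 2-fold. Tenascin N (*Tnn*), made by periosteal and suture cells, was at 42.7 and 14.7 FPKM (-1.53), which reached 3-fold when the libraries were scaled to the same *Gapdh* value (-1.64). Periostin (*Postn*) was at 396 and 199 FPKM (-0.99) and tenomodulin (*Tnmd*), a tendon gene, at 21.3 and 10.3 FPKM (-1.05). Among collagen chains, *Col3a1* was at 486 and 310 FPKM and *Col16a1* at 45.2 and 25.6 FPKM. Of 22 genes for folding and crosslinking collagen, 18 had lower values (median -0.27), where 58.3% of all genes did. They were led by the prolyl hydroxylases *P4ha1* and *P4ha2* (both -0.82) and the collagen chaperone *Serpinh1*, at 1085 and 652 FPKM. None of the 22 was past 2-fold.

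Osteocyte and osteoclast genes were also close to level. Of the 16 osteocyte genes (median 0.04) none was past 2-fold, and sclerostin (*Sost*), the osteocyte inhibitor of Wnt signalling, was at 26.7 and 45.5 FPKM (0.77). Of 20 osteoclast genes (median 0.15), 14 were higher, where 41.7% of all genes were. Tartrate-resistant acid phosphatase (*Acp5*) was at 1098 and 1389 FPKM and cathepsin K (*Ctsk*) at 1027 and 1229 FPKM. *Mitf*, a factor of osteoclasts and of pigment cells, was the exception at 5.32 and 15.4 FPKM (1.53), just short of 3-fold, while carbonic anhydrase 2 (*Car2*), shared with erythroid cells, was at 652 and 326 FPKM (-1.0).

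Signalling genes of the suture were close to level. In all, 7 lists gave 119 compared genes with a median of 0.03. Of these, 101 (84.9%) lay within 0.5 of 0, against 88.0% of all genes. Only follistatin (*Fst*), an activin antagonist, was higher past 2-fold, at 2.39 and 5.38 FPKM (1.17), and only *Igfbp2* was lower, at 46.6 and 22.6 FPKM (-1.04). Receptors of the FGF family, which act with *Twist1* in suture closure, were close to level, with *Fgfr1* at 62.1 and 54.7 FPKM and *Fgfr2* at 29.2 and 33.4 FPKM. In the BMP and TGF-beta list (31 genes, median 0.10) the antagonists *Nog* and *Chrdl1* had ratios of 0.61 and 0.68. Of the Wnt list (21 genes, median -0.03), the secreted inhibitor *Frzb* was at 8.12 and 4.98 FPKM and *Sfrp2* at 63.1 and 42.8 FPKM. Partners and relatives of *Twist1* stayed level, with *Tcf3* at 38.4 and 33.7 FPKM and *Snai1* at 17.4 and 15.9 FPKM, whereas *Id4*, an inhibitor of helix-loop-helix factors, was at 10.8 and 18.3 FPKM (0.76).

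The 21 genes lower past 3-fold were led by the meninges and brain. In the meningeal list (19 genes, median -0.11) 4 members were lower past 3-fold and none was higher past 2-fold. Prostaglandin D synthase (*Ptgds*; chr2:25322229-25325566 in mm9), abundant in the leptomeninges, was at 1975 FPKM in wild-type and 327 FPKM in mutant frontal bone (-2.60), the largest loss in FPKM of any gene compared. Most transporters of the leptomeninges were lower with it, 6 of 8 past 2-fold in a list drawn up after values were seen, while *Slc47a1* was at 5.72 and 11.2 FPKM (0.96) and *Slc26a7* at 7.23 and 6.28 FPKM (-0.20). The GABA transporter *Slc6a13* was at 13.9 and 2.21 FPKM, and the organic anion transporters *Slc22a6* and *Slc22a8*, neighbours on chromosome 19, were at 5.20 and 0.636 FPKM and at 9.02 and 1.46 FPKM. *Slc6a13*, *Slc22a6* and *Slc22a8* were under 5 FPKM in the mutant, so they entered only through wild type and their direction was fixed. By contrast, meningeal genes that fibroblasts of bone and dura also use, such as *Foxc1* (14.0 and 17.5 FPKM), *Ogn* (50.5 and 65.1 FPKM) and *Bgn* (1218 and 1015 FPKM), were within 2-fold.

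The promoter of *Ptgds* is shown as that of the gene with the largest loss in FPKM (GRCm38.p6, 250 bases, gene strand, CANNTG in capitals).
Ptgds, chr2:25469750-25469999, minus strand: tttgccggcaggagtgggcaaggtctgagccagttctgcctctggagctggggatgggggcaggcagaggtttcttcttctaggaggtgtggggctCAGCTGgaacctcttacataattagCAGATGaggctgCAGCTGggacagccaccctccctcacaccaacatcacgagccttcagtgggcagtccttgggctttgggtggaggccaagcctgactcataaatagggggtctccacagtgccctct
It holds 3 E-boxes, 2 of which read CAGCTG. Of the 18 lower genes with a promoter entry, 15 (83.3%) held a CANNTG and 3 (16.7%) a CAGCTG, against the 55.6% and 10.9% of compared genes given above.

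Astrocyte genes moved with the meninges, in a list drawn up after values were seen. Of 17 compared, 11 were lower past 2-fold and the median was -1.20. The astrocyte filament gene *Gfap* was at 59.1 and 14.2 FPKM (-2.06) and the glutamate transporter *Slc1a3* at 41.3 and 18.4 FPKM. Neurons did not follow as a group. In 22 neuronal and synaptic genes the median was -0.05, with synaptic *Snap25* at 50.1 and 50.8 FPKM and *Syp* at 49.1 and 49.9 FPKM. The vesicular glutamate transporters went opposite ways, *Slc17a7* with 42.8 and 13.6 FPKM (-1.65) and *Slc17a6* with 1.83 and 6.22 FPKM (1.76). With a pseudocount of 1 FPKM both were short of 3-fold, at -1.58 and 1.35. Genes of the olfactory bulb such as *Eomes* (5.22 and 2.12 FPKM) and *Reln* (7.42 and 2.82 FPKM), both picked out by their values, were lower past 2-fold, and *Th* was at 11.3 and 5.77 FPKM. Of 14 myelin, Schwann and glial genes 8 were lower and 6 higher (median -0.25). Past 2-fold were 4 lower and 1 higher, where 1.18% and 2.1% of all genes were. Myelin basic protein (*Mbp*), among the higher, was at 108 and 208 FPKM.

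Further lower genes were of other kinds. *Ndufs5*, a subunit of respiratory complex I, had the lowest ratio of all (-8.45), at 15.7 FPKM in wild-type frontal bone against 0.0449 FPKM in the mutant, and it was at 0.00384 and 0.0113 FPKM in the parietal libraries. Only wild-type frontal bone had a value above 1 FPKM, and the other 36 genes of complex I had ratios between -0.88 and 0.49. *Retnla*, a resistin-like secreted protein of macrophages and fat, was at 68.8 and 6.81 FPKM (-3.34). Eosinophil genes formed a group in a list made after values were seen, with a median of -1.59. All 7 compared genes were lower. Of these, *Ear1*, *Ear6*, *Epx*, *Prg3* and *Ccr3* were under 5 FPKM in the mutant. They entered only through wild type, so their direction was fixed. Eosinophil ribonuclease *Ear1* was at 28.1 and 3.58 FPKM, *Ear6* at 25.1 and 4.0 FPKM, and the granule protein gene *Prg2* at 154 and 51.2 FPKM (-1.59). *Ear1* shares 13.3% of its windows with *Ear10*.

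Several functions were lower by a small but even amount. All 26 compared erythroid and heme synthesis genes had a lower value in *Twist1*+/- frontal bone, where 58.3% of all genes did, with a median log2 ratio of -0.85 and 6 past 2-fold. *Alas2*, the first enzyme of heme synthesis in red cells, was at 576 and 300 FPKM (-0.94), and the membrane protein genes *Epb4.2* and *Kel* had ratios of -1.38 and -1.39. The globin genes cannot be set beside them, since *Hba-a1* and *Hbb-b1* are listed at 0 in wild-type and at 11198 and 17820 FPKM in mutant frontal bone, and they share 62.2% and 50.6% of their windows with another gene. All 41 genes of the cell cycle list were lower as well, with a median of -0.62 and none past 2-fold. The proliferation marker *Mki67* was at 67.5 and 36.6 FPKM and *Rrm2*, which makes deoxynucleotides, at 132 and 69.0 FPKM.

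Interferon and secretory stress genes had the same sign. All 16 compared interferon response genes were lower (median -0.62), 4 past 2-fold, where 58.3% of all genes were lower to any degree. *Isg15*, a ubiquitin-like protein induced by interferon, was at 65.0 and 24.1 FPKM (-1.43), and the factor *Irf7* at 19.2 and 8.74 FPKM (-1.14). Of 22 endoplasmic reticulum stress genes 21 were lower (median -0.41), with the chaperone *Hspa5* at 336 and 200 FPKM (-0.75). Ribosomal protein genes (77 genes, median 0.05) and the respiratory chain complexes II to V (38 genes, median 0.07) were level, so these shifts were not shared by all abundant genes. Wild-type parietal bone was below wild-type frontal bone for *Mki67* (11.9 FPKM), *Isg15* (18.7 FPKM) and *Alas2* (395 FPKM).

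Cells of the marrow other than red cells did not share a direction. Of 26 neutrophil granule genes 24 were higher, where 41.7% of all genes were, though by little (median 0.29). Examples are *Elane* at 175 and 177 FPKM and *Camp* at 867 and 1149 FPKM. The exceptions were the stefin A genes on chromosome 16, which encode cysteine protease inhibitors. *Stfa2* was at 30.3 and 146 FPKM (2.27) and *Stfa3* at 21.8 and 74.8 FPKM (1.78), with *BC100530* of the same family at 50.7 and 152 FPKM. At 1.58 this last was just short of 3-fold, which it passed after scaling to the median ratio (1.63), and it shares 22.4% of its windows with another gene. B cell genes (17 genes, median -0.10) had none past 2-fold. Of 9 mast cell and basophil genes 8 were higher (median 0.63). The connective tissue mast cell proteases *Tpsb2*, *Mcpt4* and *Cma1* had ratios between 1.31 and 1.43, at mutant levels of 5.62 to 7.81 FPKM. These proteases were under 5 FPKM in wild type and entered only through the mutant. Their direction was thus fixed, so the list is not set against all genes.

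Parietal bone gave a second pair of libraries, sharing no sample with the first though possibly the same mice, for the genes called in frontal bone, within the limit that *Twist1* was at the wild-type level in the library labelled as mutant. Between the parietal libraries 249 of 9876 genes (2.52%) were higher and 172 (1.74%) lower past 3-fold. Of the 117 non-muscle genes higher in frontal bone, 113 were above 0 in both parietal libraries, where 97 were again higher past 3-fold, with a median log2 ratio of 3.78. Of the 27 muscle genes none was higher past 3-fold there and 20 were lower, with a median of -0.42. Among the 21 genes lower in frontal bone 17 were higher in the parietal library labelled mutant, as were 4790 of all 10070 genes above 0 in both parietal libraries. Nasal and pineal genes thus carried mostly the same sign in both bones, and most muscle genes opposite signs. *Ptgds*, for example, was at 1975, 327, 52.8 and 428 FPKM in wild-type frontal, mutant frontal, wild-type parietal and labelled mutant parietal bone.

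**Figure D5:**
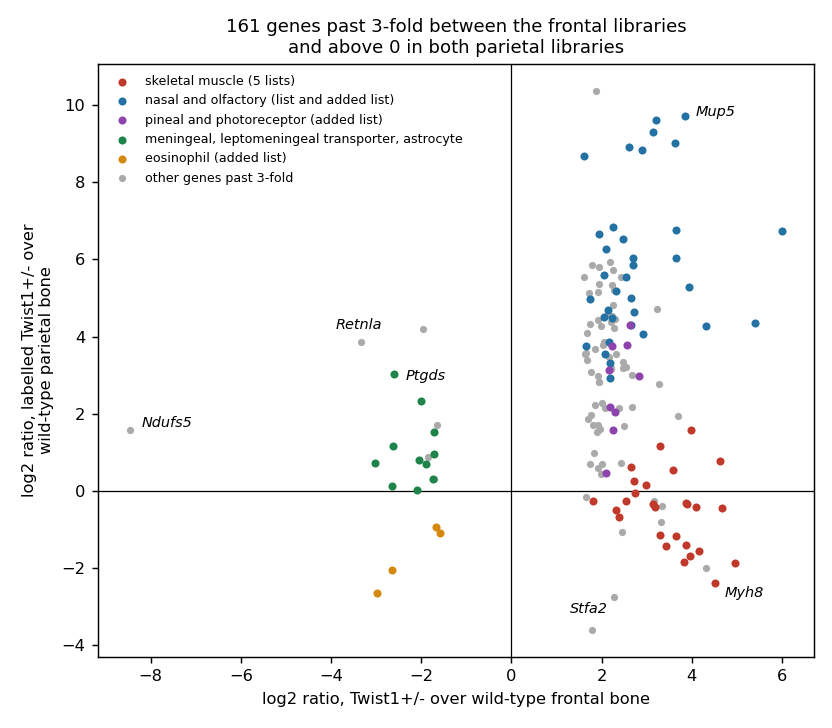
Log2 ratios of FPKM, *Twist1*+/- over wild type, in frontal bone (horizontal axis) and in parietal bone as labelled (vertical axis), for the 161 genes past 3-fold in frontal bone and above 0 in both parietal libraries. Nasal genes (blue) are high on both axes, muscle genes (red) lie below 0 in parietal bone in 20 of 27 cases, and most genes on the left lie above 0.

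Lists that mark neighbouring tissues did not all differ. Past 2-fold were 15 of 19 nasal genes and 29 of 47 muscle genes, all higher, and 11 of 17 astrocyte genes, all lower, in a list drawn up after values were seen. Members under the floor in 1 of the frontal libraries had their direction fixed by it. In the meningeal list 4 of 19 were lower past 2-fold, and in the neuronal list 1 of 22 was higher and 1 lower. The part of such tissue in the differences was not tested, and with 1 library on each side genotype and dissection cannot be told apart.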

How the data were processed

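Poly(A) RNA of wild-type and *Twist1*+/- calvaria, frontal and parietal bone apart, was sequenced as single-end 75-base reads, with 1 set of values available per condition. The authors aligned the reads to mm9 with STAR 2.4.2a and deposited FPKM per gene symbol from Cuffdiff (Cufflinks 2.2.1). FPKM hold no counts and the study gives read numbers only as an average over samples. The depth of each library is therefore estimated only by the relative value given, and no interval or test was made.

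Log2 ratios were computed with Python 3.11.15, pandas 2.3.3 and numpy 2.4.6, without a pseudocount, over genes above 0 in both frontal libraries and at 5 FPKM or more in the higher. Calls were made past 3-fold and past 2-fold. Members and gene lists were chosen with earlier results of these data known, and 6 lists were added after values were seen. Named were *Twist1*, *Gapdh*, the 10 widest differences each way, the 10 highest without muscle lists, the 10 highest means, and in each list the 3 widest members and the most abundant; other named genes were chosen after their values were seen. A few genes that this rule names are not reported here. Shared 75-base windows were counted in transcripts of the same build, and promoters came from RefSeq (GRCm38.p6). The alternatives were other floors, pseudocounts and scalings, and the choice of genes left out.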

Additional observations from a re-analysis of the deposited data

Results flagged for a closer look

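Several genes past 3-fold in frontal bone were past 3-fold the opposite way in parietal bone as labelled, and with 1 library per condition this difference was not tested. Among muscle genes the parietal log2 ratios were -1.89 for *Sln*, -2.40 for *Myh8*, -2.01 for *Itgb1bp2* and -1.70 for *Casq1*, where the frontal ratios were positive. The stefin genes *Stfa2* and *Stfa3* had parietal ratios of -2.76 and -3.61. Of the genes lower in frontal bone, *Retnla*, *Ptgds* and *Slc17a7* had parietal ratios of 3.86, 3.02 and 1.71.

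Outside the genes compared, 5 genes were listed at 0 in wild-type frontal bone and reached the floor of 5 FPKM in *Twist1*+/- frontal bone. They were *Hba-a1* (11198 FPKM), *Hbb-b1* (17820 FPKM), *Hbb-bt* (4434 FPKM), *Hbb-bs* (20.4 FPKM) and *Gm12238* (30.9 FPKM). Of 53 short RNA genes at the floor and above 0 in both frontal libraries, 3 were higher and 12 lower past 3-fold, and 49 others were listed at 0 in 1 of the libraries.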

How the results depend on the processing

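The count of genes past 3-fold depended most on the floor. From 165 it went to 461 at a floor of 1 FPKM, 106 at 10 FPKM and 1328 with no floor, and to 68 with the muscle, nasal and other tissue lists left out, an alternative chosen after seeing the data. Without the muscle lists the count of 138 went to 413, 85, 1262 and 68, and the count past 2-fold, 331, to 923, 194, 2472 and 219. With a pseudocount of 1 FPKM they were 135, 108 and 274, and with scaling to the median 170, 143 and 326. The muscle energy supply list, at a median of 1.06, was short of 2-fold at a floor of 1 FPKM (0.75), with a pseudocount of 1 (0.99) and with *Gapdh* scaling (0.96). Median and *Gapdh* scaling took -0.05 and 0.10 from every log2 ratio, so no direction is read from list medians near 0. *Mitf* passed 3-fold after median scaling (1.59), and *Dynlrb2* was short of it with a pseudocount of 1 (1.44). No paired analysis was possible because each condition had 1 set of values and no test was made.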

Other observations

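Secreted and neuropeptide genes in no list, chosen after their values were seen, also differed between the frontal libraries. The tachykinin gene *Tac4* was at 1.77 and 17.2 FPKM in wild-type and *Twist1*+/- bone, and *Svopl*, a transporter-like gene, at 0.417 and 5.37 FPKM. Lower in the mutant were neuropeptide Y (*Npy*, 34.9 and 11.9 FPKM), *Apod* (118 and 46.2 FPKM) and *Ostn*, the gene of the bone-derived peptide osteocrin (16.9 and 7.82 FPKM). *Fgf23*, the phosphate-regulating hormone of bone, was under the floor at 0.525 and 1.0 FPKM and was not compared.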
